A study of Mus musculus with 16 samples.

Results

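Toll-like receptors and their co-receptors are the subject here: Tlr1, Tlr2, Tlr4, Tlr6, Cd14 and Ly96, whose proteins act at the cell surface, and Tlr7, Tlr8, Tlr9 and Tlr13, whose proteins signal from endosomes. The members were taken as every noncontrol probe whose printed gene name equals one of these 10 symbols, which gave 12 probes among an array content of 22593 symbols. Of the 10 genes, 9 had at least 1 probe bright enough to be tested, and Tlr4 did not.

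Toll-like receptors are sensors of microbial molecules. The surface receptors bind lipids and lipoproteins, with Cd14 handing lipopolysaccharide to the pair formed by Tlr4 and Ly96 (MD-2), whereas the endosomal receptors bind nucleic acids and depend on the chaperone Unc93b1 to reach their compartment and on proteases to become active. Nearly all of them signal through Myd88, and hematopoietic progenitors are known to carry some of these receptors before they differentiate.

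The study asked what a growing mammary tumor does to the progenitors of conventional dendritic cells (cDCs). Macrophage-dendritic cell progenitors (MDPs), which keep monocyte and macrophage potential, and common dendritic cell progenitors (CDPs), a later stage, were sorted by flow cytometry from the bone marrow (BM) of female C57/Bl6 mice. Tumor-bearing mice carried orthotopic tumors of PyMT-B6, a cell line from the polyoma middle T mammary tumor model, in the mammary fat at 1.5 cm diameter, and the controls were age-matched tumor-free mice of the same strain. RNA was hybridized to one-color Agilent arrays, 16 in all: 4 each of tumor-free MDPs, tumor-bearing MDPs, tumor-free CDPs and tumor-bearing CDPs, numbered 2 to 5 in each group, each sample pooling 2 mice. The tumors come from 1 cell line and the mice are of 1 sex. The series' design text speaks of independent experiments, and p-values here measure the spread between these samples.

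Between 58.8% and 71.5% of probes were well above background on an array, samples of one group correlated at r = 0.904 to 0.977, and 0 spots were saturated. The arrays sat on 4 slides, and slide accounted for 93.9% of the variance of the first principal component against 33.8% for group. Tumor-free MDPs and CDPs had 1 array on every slide, but tumor-bearing MDPs had 2 on slide 1 and none on slide 4, and tumor-bearing CDPs had 2 on slide 4 and none on slide 1. Differences are therefore also given within slides. All 5 genes of the progenitor gate (Flt3, Csf1r, Kit, Cx3cr1 and Irf8) were above background on all 16 arrays.

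The probes behind the results are 60 bases long, so each probe read a single short stretch of its message. Shown are the last 30 bases of the probes of the members that differed between groups and of all 3 Tlr7 probes, whose readings parted, as printed in the spot tables in the sense of the transcript (5′ to 3′), with the polyadenylation hexamer AATAAA in capitals where these letters occur. Positions of the whole probe are on mouse genome build mm9.
Tlr2, chr3:83640344-83640403, minus strand: gggtaaatctgagaactgcAATAAAgtcct
Tlr13, chrX:103355773-103355832, plus strand: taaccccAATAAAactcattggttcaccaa
Tlr9, chr9:106128979-106129038, plus strand: tctgtcttactacaccgctatttggcaagt
Tlr8, chrX:163683356-163683415, minus strand: tatactatacctgctgggttgcctgagtct
Tlr7, brightest probe, chrX:163747214-163747273, minus strand: gtttggggcagcaagagacatggctcagtg
Tlr7, second tested probe, chrX:163742863-163742922, minus strand: gttcaatgaAATAAAagcccagagaacttc
Tlr7, probe not tested, chrX:163743146-163743205, minus strand: gttgtcatggctcagattggtgggaaatca
The spot tables start the Tlr2 probe at base 2645 of its transcript, the Tlr13 probe at base 3954, the Tlr9 probe at base 3242 and the Tlr8 probe at base 406. The brightest Tlr7 probe starts at base 254, and the other Tlr7 probes at bases 3878 and 3595. On the printed strand, the hexamer is found in the last 30 bases of 4174 of the 39429 probes on the array (10.6%), and no other motif was searched.

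Tlr13 stood higher in CDPs than in MDPs in both tumor states and rose further in CDPs of tumor-bearing mice. The call of this rise was lost in 7 of 8 fits that left out 1 sample. Tlr2 was higher in CDPs than MDPs of tumor-free mice, a call lost when any 1 of the 8 samples was left out. Tlr9 was higher in CDPs than MDPs of tumor-bearing mice, a call lost with slide as a term of the fit. In tumor-free mice the same Tlr9 difference was called only with alternatives such as slide as a term (0.70, limma adjusted p = 0.00725). With slide as a term Tlr9 was also called lower with tumor in CDPs (-0.59, limma adjusted p = 0.04). Tlr8 passed between the cell types of tumor-bearing mice, but it could be tested only because tumor-bearing CDPs read it, so its call is a description. The other tested members, Tlr1, Tlr6, Tlr7, Cd14 and Ly96, passed the test in no comparison. Signals are given as log2 of the processed signal minus the 75th percentile of the array, so 0 is a bright probe and each unit is a doubling. They serve to compare samples for 1 probe, not probes with each other. A gene was called where limma gave a Benjamini-Hochberg adjusted p (FDR) under 0.05 over all tested probes and the fold exceeded 1.5.

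**Figure D1:**
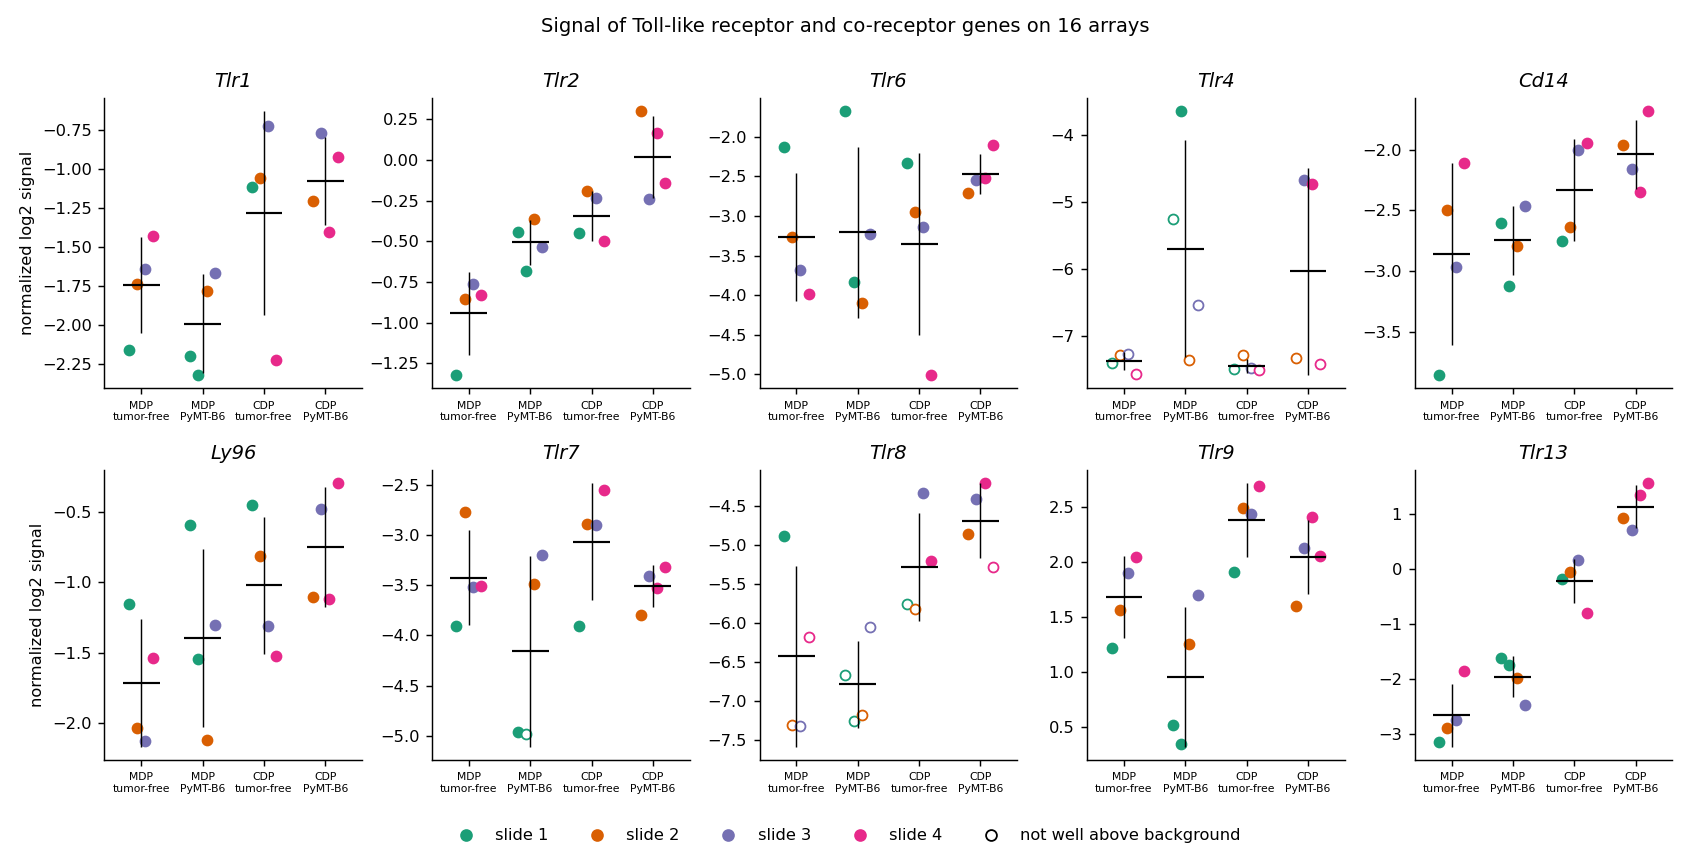
Normalized log2 signal (vertical axis, own scale per gene) of each member in the 4 groups, 1 point per array colored by slide, open where not well above background, with the mean (bar) and SD (line) of 4 arrays. Tlr13 ran from a mean of -2.66 in tumor-free MDPs to 1.14 in tumor-bearing CDPs, whereas Tlr4 was above background on 3 of 16 arrays.

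Among the surface receptors, Tlr2 senses bacterial lipoproteins together with Tlr1 or Tlr6. Its signal in samples 2 to 5 was -0.86, -1.32, -0.83 and -0.76 in tumor-free MDPs and -0.44, -0.37, -0.68 and -0.53 in tumor-bearing MDPs. In CDPs it was -0.23, -0.50, -0.19 and -0.45 without a tumor and -0.14, 0.16, 0.30 and -0.24 with one. Every CDP sample lay above every MDP sample of the same tumor state, and every tumor-bearing MDP sample lay above every tumor-free one, while the tumor-free and tumor-bearing CDPs overlapped. Group means ran in the order tumor-free MDPs (-0.94 ± 0.26, SD, n = 4), tumor-bearing MDPs (-0.51 ± 0.14), tumor-free CDPs (-0.34 ± 0.15) and tumor-bearing CDPs (0.02 ± 0.25).

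In tumor-free mice Tlr2 was 1.52-fold higher in CDPs than in MDPs (log2 difference 0.60, SE 0.17, limma adjusted p = 0.0454), just past both thresholds, and the difference was positive on 4 of 4 slides (0.33 to 0.87). The call was lost when any 1 of the 8 samples was left out (difference 0.47 to 0.66, adjusted p 0.0622 to 0.13), although the difference was positive in each such fit. In tumor-bearing mice the difference was 0.53 (SE 0.17, limma adjusted p = 0.0692) without overlap of the groups. The tumor-bearing minus tumor-free difference was 0.44 in MDPs (limma adjusted p = 0.416) and 0.36 in CDPs (adjusted p = 0.35), and neither passed the test. For MDPs the exact two-sided permutation test on this gene alone gave p = 0.0286, the smallest that 70 relabelings of 4 against 4 allow.

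Tlr1, the partner of Tlr2 for triacylated lipoproteins, was read by a probe at chr5:65316115-65316174 (minus strand). Its signal in samples 2 to 5 was -2.20, -1.78, -2.32 and -1.67 in tumor-bearing MDPs and -0.92, -1.41, -1.21 and -0.77 in tumor-bearing CDPs, and these groups did not overlap. The difference of 0.92 (SE 0.29) missed the threshold (limma adjusted p = 0.0712). In tumor-free mice the group means were -1.74 ± 0.31 in MDPs and -1.28 ± 0.65 in CDPs (SD, n = 4), with CDP sample 3 at -2.23 below every MDP sample.

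Tlr6, the partner of Tlr2 for diacylated lipoproteins, has its probe at chr5:65344365-65344424 (minus strand), and its samples spread most among the surface genes tested. Tumor-free CDPs ran from -5.01 to -2.34 and tumor-bearing MDPs from -4.09 to -1.68, against -2.71 to -2.11 in tumor-bearing CDPs. The tumor-bearing minus tumor-free difference in CDPs was 0.89, but its SE was 0.59 and the 95% interval ran from -0.39 to 2.16 (limma adjusted p = 0.596). It was 0.34 without tumor-free CDP sample 3 and 1.31 with slide as a term. In none of the comparisons did the Tlr6 groups separate.

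For the lipopolysaccharide receptor, the co-receptors were read on every array and the receptor on few. Cd14 means ran in small steps from -2.86 ± 0.75 in tumor-free MDPs over -2.75 ± 0.29 in tumor-bearing MDPs and -2.34 ± 0.42 in tumor-free CDPs to -2.04 ± 0.28 in tumor-bearing CDPs (SD, n = 4), and neighbors in this order overlapped. Tumor-bearing CDPs (-2.35 to -1.69) lay above tumor-bearing MDPs (-3.12 to -2.46), with a difference of 0.71 (SE 0.32, limma adjusted p = 0.175). With slide as a term this difference was 0.24 (adjusted p = 0.692). Ly96, which binds lipid A beside Tlr4, had the same order of means, from -1.71 ± 0.45 to -0.75 ± 0.43, with overlap between all neighboring groups and limma adjusted p of at least 0.217 in the 4 comparisons of groups.

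Tlr4 itself, at chr4:66503470-66503529 (plus strand), was above background in 0 of 4 tumor-free MDP samples, 1 of 4 tumor-bearing MDP samples (sample 4, -3.65), 0 of 4 tumor-free CDP samples and 2 of 4 tumor-bearing CDP samples (sample 3 at -4.74 and sample 5 at -4.68). It was not tested. All 3 readings above background came from tumor-bearing mice, on slides 1, 3 and 4, and the other 5 tumor-bearing samples read between -7.43 and -5.26 without clearing background.

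Tlr13, the endosomal sensor of bacterial ribosomal RNA, had the largest log2 differences among the tested members in 3 of the 4 comparisons of groups, all but tumor-bearing against tumor-free MDPs. Its signal in samples 2 to 5 was -2.89, -3.15, -1.85 and -2.75 in tumor-free MDPs and -1.61, -1.99, -1.75 and -2.47 in tumor-bearing MDPs. It was 0.16, -0.79, -0.06 and -0.18 in tumor-free CDPs and 1.57, 1.35, 0.92 and 0.71 in tumor-bearing CDPs. All 8 CDP samples lay above all 8 MDP samples, the CDP groups did not overlap, and the MDP groups did.

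Against MDPs, Tlr13 was 5.43-fold higher in CDPs of tumor-free mice (log2 difference 2.44, SE 0.30, limma adjusted p = 0.000314) and 8.52-fold higher in CDPs of tumor-bearing mice (3.09, SE 0.30, limma adjusted p = 3.62e-05). Both calls held in all alternatives run. Within slides the difference was positive on 4 of 4 slides in tumor-free mice (1.06 to 2.97) and on 2 of 2 in tumor-bearing mice (2.91 to 3.18). Because sorted bulk populations were measured, a larger share of cells with the message and more message per cell cannot be told apart, here and below.

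In CDPs, Tlr13 rose 2.56-fold in tumor-bearing mice (log2 change 1.36, SE 0.30, 95% interval 0.70 to 2.01, limma adjusted p = 0.0383, exact two-sided permutation p = 0.0286), and the change was positive on 3 of 3 slides (0.55 to 2.25). It was the single member called of 9 tested in this comparison, where 2.01% of all 16307 tested genes were called, and the single one without overlap of the groups, against 11.1% of all genes. The call was lost without any 1 of tumor-free CDP samples 2, 3, 4 and 5 or tumor-bearing CDP samples 2, 3 and 4 (log2 change 1.16 to 1.48, adjusted p 0.0597 to 0.125). It held without tumor-bearing CDP sample 5 (1.50, adjusted p = 0.0348). Several marker lists differed in the same comparison. The summed signal of the 9 neutrophil markers on the array, in units of the 75th percentile, was 25.3 to 35.5 in tumor-free and 42.5 to 61.9 in tumor-bearing CDPs. Elane and Mpo made up most of this sum, 2 of the 9 (Elane and Mmp8) were called higher, and Ngp, Camp and Ltf had log2 changes of -0.25, -0.65 and -0.45 and were not called. The sum of the 8 monocyte and macrophage markers overlapped (54.8 to 79.8 and 70.9 to 81.3), with 0 of 8 called by limma. The progenitor-gate sum was 47.5 to 60.9 in tumor-free and 41.2 to 47.3 in tumor-bearing CDPs. Csf1r, Irf8 and Cx3cr1 made up most of this sum and were not called, with log2 changes of -0.21, -0.02 and -1.27. Kit, which made up little of it, was called lower (-1.34, limma adjusted p = 0.00427). Called lower were also 1 of 7 tested cDC markers (Cd209a), 2 of 9 pDC markers (Spib and Bst2) and 1 of 4 tested T and NK cell markers (Klrd1). The part of these markers in the Tlr13 result was not tested.

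In MDPs the Tlr13 change was 0.71 (SE 0.30, 95% interval 0.05 to 1.36, limma adjusted p = 0.459), with overlap, and positive on 3 of 3 slides (0.28 to 1.47). Of the 9 members 0 were called by limma in MDPs, where 0.0859% of all genes were, and 3 had an unadjusted p under 0.05 (Tlr13, Tlr9 and Tlr2), as had 10.4% of all genes. In MDPs 1 member (Tlr2) did not overlap, against 5.41% of all genes. The change in CDPs exceeded that in MDPs by 0.65 for Tlr13 (SE 0.43, 95% interval -0.27 to 1.57, limma adjusted p = 0.748), so a difference between the progenitors was not shown. For this difference of changes 0 of 9 members were called by limma, against 0.0123% of all genes, and 0 had an unadjusted p under 0.05, against 4.08% of all genes.

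**Figure D2:**
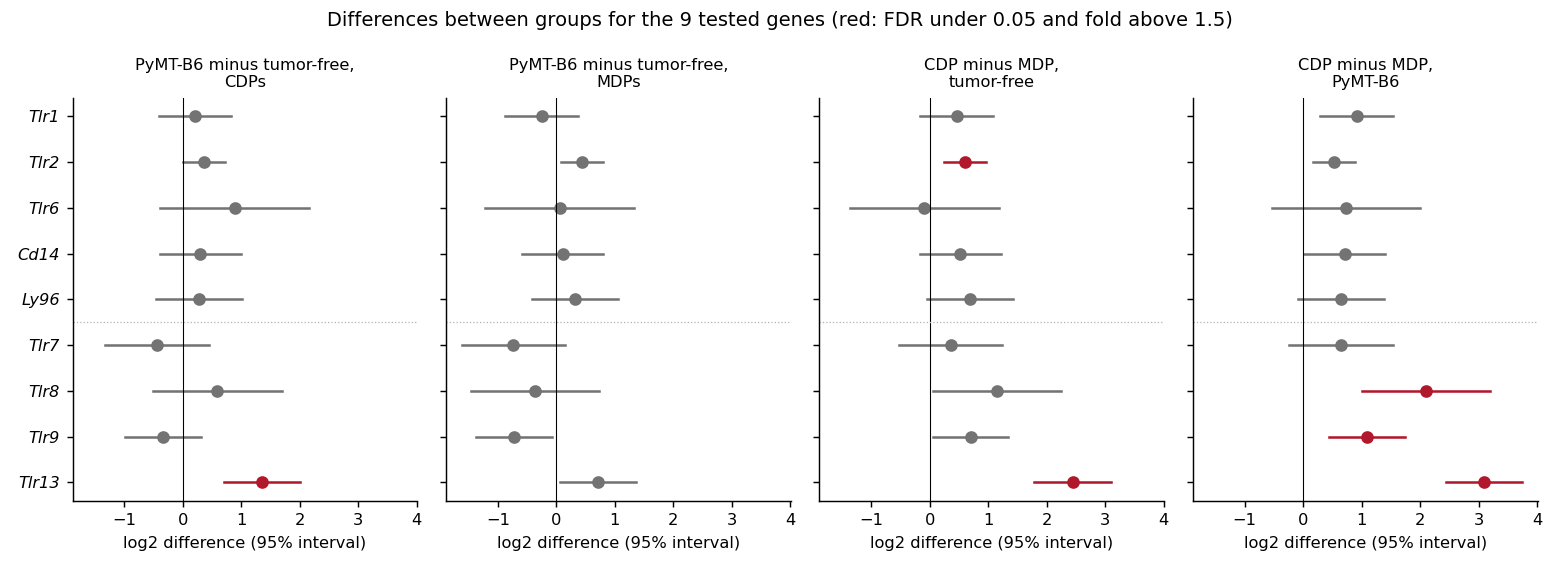
Log2 differences (points) with 95% intervals (lines) from the limma fit for the 9 tested genes in the 4 comparisons of groups, surface genes above the dotted line and endosomal genes below. Red marks the 6 calls: Tlr13 in 3 comparisons, Tlr2 in tumor-free mice, and Tlr8 and Tlr9 in tumor-bearing mice, where Tlr8 was tested through tumor-bearing CDPs alone.

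Tlr9, the sensor of unmethylated CpG DNA, was bright in all groups. Its signal in samples 2 to 5 was 1.56, 1.21, 2.04 and 1.90 in tumor-free MDPs and 0.52, 1.25, 0.34 and 1.70 in tumor-bearing MDPs. In CDPs it was 2.43, 2.69, 2.49 and 1.91 without a tumor and 2.05, 2.40, 1.59 and 2.12 with one. Tumor-bearing MDPs held the lowest readings and tumor-free CDPs the highest, but neighboring groups overlapped.

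In tumor-bearing mice Tlr9 was 2.13-fold higher in CDPs than in MDPs (log2 difference 1.09, SE 0.30, limma adjusted p = 0.0411). The groups overlapped through MDP sample 5, and the exact two-sided permutation p was 0.0571. Slide moved with this result: the MDP samples 2 and 4, at 0.52 and 0.34, were both on slide 1, where no tumor-bearing CDP sample lay, and the mean of Tlr9 over all arrays was 0.99 on slide 1 and 2.30 on slide 4. On the 2 shared slides the difference was 0.34 to 0.43, and with slide as a term it was 0.59 (adjusted p = 0.0538), which was not called. Leaving out 1 of MDP samples 2 and 4 or CDP samples 2, 3 and 5 also lost the call (0.89 to 1.09, adjusted p 0.0959 to 0.132).

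In the slide-balanced comparison of tumor-free mice the Tlr9 difference was 0.70 (SE 0.30, limma adjusted p = 0.238) and lay between 0.53 and 0.93 on each of 4 slides. With slide as a term it was called (adjusted p = 0.00725). The tumor-bearing minus tumor-free difference of Tlr9 was negative on 3 of 3 slides both in CDPs (-0.89 to -0.31) and in MDPs (-0.79 to -0.20). It was -0.34 in CDPs (SE 0.30, limma adjusted p = 0.726) and -0.73 in MDPs (adjusted p = 0.452), and with slide as a term it was called in CDPs (-0.59, adjusted p = 0.04) but not in MDPs (-0.48, adjusted p = 0.152). Tlr9 thus lay on the other side of 0 from Tlr13 in both tumor comparisons.

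**Figure D3:**
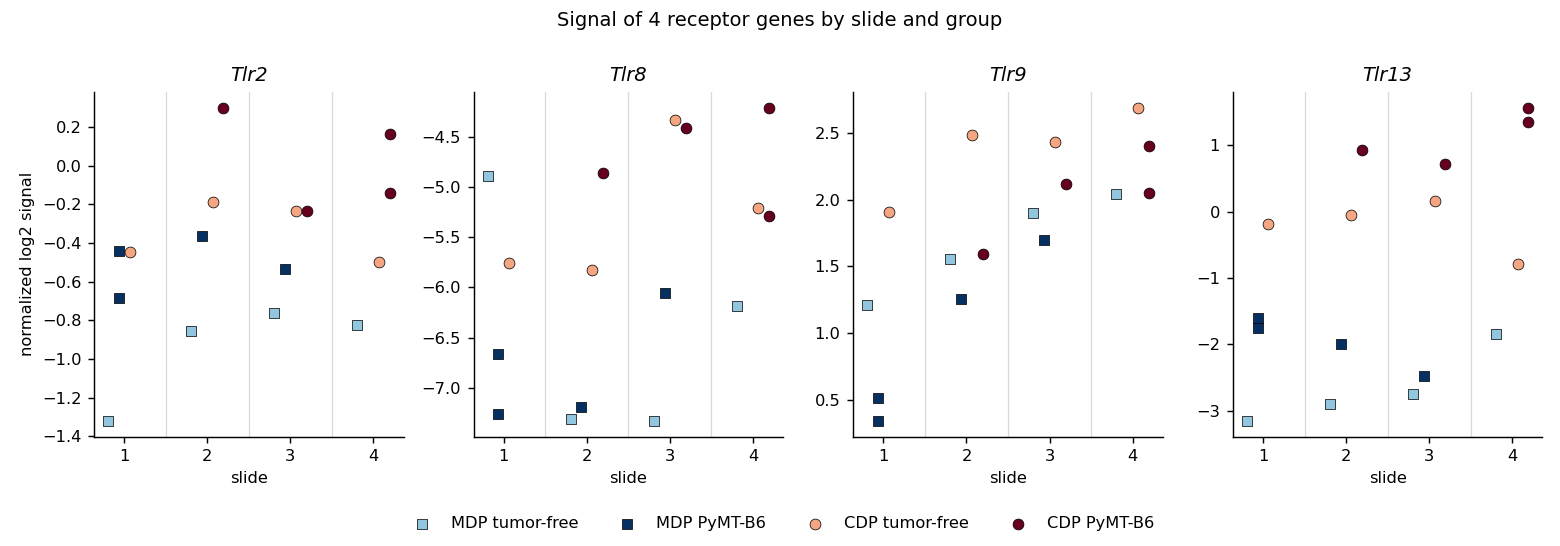
Normalized log2 signal (vertical axis) of Tlr2, Tlr8, Tlr9 and Tlr13 by slide (horizontal axis), squares for MDPs and circles for CDPs, lighter for tumor-free and darker for PyMT-B6-bearing mice. Tlr13 separated CDPs from MDPs on each slide, while Tlr9 was lowest in the 2 tumor-bearing MDP samples of slide 1 (0.34 and 0.52).

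Tlr8, a receptor for RNA degradation products, was near the detection limit, above background in 1 of 4 tumor-free MDP, 0 of 4 tumor-bearing MDP, 2 of 4 tumor-free CDP and 3 of 4 tumor-bearing CDP samples. It entered the test through tumor-bearing CDPs alone, so it had to be high there. Its readings in samples 2 to 5 were -6.67, -7.19, -7.26 and -6.05 in tumor-bearing MDPs, none above background, and -5.28, -4.21, -4.86 and -4.42 in tumor-bearing CDPs, of which sample 2 was not. The groups did not overlap, and Tlr8 was at least 1.42-fold higher in CDPs, taking the background floor for the MDPs (fitted difference 2.10, limma adjusted p = 0.0228). The call was lost without any 1 of MDP samples 2, 3 and 4 or CDP samples 3 and 5 (1.94 to 2.14, adjusted p 0.0505 to 0.0738), and under normexp background correction the difference was 0.56 (adjusted p = 0.314).

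In tumor-free mice the single MDP reading above background, sample 3 at -4.89, was higher than 3 of the 4 CDP readings (-5.83 to -5.21), and the highest of all was CDP sample 2 at -4.33. The Tlr8 difference was 1.15 (SE 0.51, limma adjusted p = 0.262), and without that MDP sample it was called (1.66, adjusted p = 0.0416). The tumor-bearing minus tumor-free difference was 0.59 in CDPs (SE 0.51, limma adjusted p = 0.715) and -0.36 in MDPs (adjusted p = 0.757).

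Tlr7, which binds guanosine and single-stranded RNA, was read by 3 probes that disagreed. The brightest was above background on 15 of 16 arrays, with means of -3.42 ± 0.47 in tumor-free MDPs, -4.16 ± 0.95 in tumor-bearing MDPs, -3.06 ± 0.58 in tumor-free CDPs and -3.51 ± 0.21 in tumor-bearing CDPs (SD, n = 4), and all groups overlapped. The lowest readings were tumor-bearing MDP samples 2 and 4 (-4.96 and -4.98), both on slide 1, where also the tumor-free samples read -3.90 in both cell types. Its tumor-bearing minus tumor-free difference was -0.45 in CDPs (limma adjusted p = 0.737), negative on 3 of 3 slides (-0.90 to -0.51), and -0.74 in MDPs (adjusted p = 0.542), negative on 2 of 3.

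The second tested Tlr7 probe, near the other end of the transcript, was above background on 6 of 16 arrays and entered the test through tumor-free CDPs alone. It read -3.44, -4.46, -7.06 and -4.25 in samples 2 to 5 of that group, and at -7.36 to -6.89 it was above background in 0 of 4 tumor-free MDP samples. Taking the background floor for the MDPs, the CDP mean was 1.33-fold higher by this probe, and the groups overlapped. The fitted difference (2.38, SE 0.97, limma adjusted p = 0.201) did not pass the test. Since tumor-free CDPs admitted the probe to the test, their higher mean is a description. Tumor-bearing CDPs split on it: samples 3 and 5 read -3.46 and -2.82, samples 2 and 4 read -5.68 and -7.42 without clearing background. The third probe, above background in 2 of 4 samples of each of tumor-bearing MDPs, tumor-free CDPs and tumor-bearing CDPs and in 0 of 4 tumor-free MDP samples, was not tested.

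Tlr8 is left out of the following counts of members in the comparisons of groups, because it was tested only through the group in which it was high. Between the cell types, the CDP mean was higher than the MDP mean for 7 of the other 8 tested members in tumor-free mice and 8 of 8 in tumor-bearing mice. In the latter the slides were not balanced, and Tlr7 was lower in CDPs on both shared slides (-0.31 and -0.21), with a difference of 0.65 overall and 0.05 with slide as a term. The median log2 difference of the 8 members was 0.56 and 0.72, beside 0.02 and 0.16 over all 16307 genes. Of these members 2 (Tlr2 and Tlr13) were called in tumor-free mice, against 7.05% of all genes, and 2 (Tlr9 and Tlr13) in tumor-bearing mice, against 8.22%. Groups did not overlap for 2 members (Tlr13 and Tlr2) and 4 members (Tlr13, Cd14, Tlr1 and Tlr2), against 14.9% and 15.3%. The surface median was 0.52 and 0.71, and the endosomal genes Tlr7, Tlr9 and Tlr13 ran from 0.36 to 2.44 and from 0.65 to 3.09.

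The sum of the monocyte and macrophage markers was 38.4 to 49.3 in tumor-free and 34.5 to 48.8 in tumor-bearing MDPs, below every CDP sample, and 2 of 8 (Ccr2 and Lyz2) were called higher in CDPs of tumor-free mice. The neutrophil sum was 51.2 to 71 in tumor-free and 49.5 to 80.4 in tumor-bearing MDPs, above the tumor-free CDPs and overlapping the tumor-bearing CDPs. Sums of further lists in the order tumor-free MDPs, tumor-bearing MDPs, tumor-free CDPs and tumor-bearing CDPs were as follows. The cDC markers summed to 4.91 to 8.38, 2.42 to 7.57, 8.05 to 12.2 and 2.44 to 10.5, with Xcr1 below background on all arrays, and the pDC markers to 12 to 31.1, 12.9 to 27.5, 16.9 to 33.1 and 21.7 to 41.9. The T and NK cell sum, of which Nkg7 made up most, was 13.5 to 17.9 in MDPs and 2.22 to 3.18 in CDPs. The part of other cells in the members' differences was not tested.

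With tumor, the median log2 difference of these 8 members was 0.28 in CDPs and 0.08 in MDPs, beside 0.07 and -0.09 over all genes. In CDPs 6 of 8 members lay higher in tumor-bearing mice, as did 9345 of all 16307 genes. Among the members were 5 of 5 surface genes (0.21 to 0.89), none of which was called. Of the 3 shared slides, Tlr6 was higher on 3, Tlr2 and Ly96 on 2, and Tlr1 and Cd14 on 1. With slide as a term the Cd14 difference was 0.06. Of the endosomal genes Tlr13 lay above 0 and Tlr7 and Tlr9 below. In MDPs the surface median was 0.11, and of the endosomal genes Tlr13 lay above 0 (0.71) and Tlr7 and Tlr9 below (-0.74 and -0.73). The Tlr7 value is that of its brightest probe. Its second tested probe lay on the other side in MDPs (0.86, limma adjusted p = 0.704). That probe was above background in 0 of 4 tumor-free and 1 of 4 tumor-bearing MDP samples.

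The order of the group means sorted the members. For Tlr2, Cd14, Ly96 and Tlr13 it was tumor-free MDPs, tumor-bearing MDPs, tumor-free CDPs, tumor-bearing CDPs from low to high, and for Tlr1 the MDP groups traded places. Tlr8 was tested through tumor-bearing CDPs alone, so its highest mean there is a description. Its MDP means, mostly of readings below background, have no order. Tlr9 and, by its brightest probe, Tlr7 were highest in tumor-free CDPs and lowest in tumor-bearing MDPs. Tlr6 was lowest in tumor-free CDPs and highest in tumor-bearing CDPs.

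With Tlr8 included, 32 of the 36 pairs of tested members correlated positively over the 16 arrays. Their Pearson r had a median of 0.45 and a range of -0.38 to 0.86. All pairs with Tlr8 were positive (0.28 to 0.69), and pairs of other genes were not counted. The arrays share slides and groups, so these values are descriptions. Tlr2 and Tlr13 were the closest pair (r = 0.86, and 0.89 after removing slide means), followed by Tlr7 and Tlr9 (0.83 and 0.73) and by Ly96 and Tlr6 (0.73 and 0.75). Tlr6 and Tlr7 were the farthest apart before slide means were removed (-0.38, and -0.13 after). Removing them changed the order, with Tlr2 and Tlr7 then the farthest apart (-0.39). Ly96 and Tlr1 each stood closer to Tlr13 (0.79 and 0.77) than Tlr7 to Tlr9.

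Among 16226 other genes, the pattern of Tlr13 over the 16 arrays was most like that of Adgre5 (r = 0.97), Ceacam2 (0.97) and Gp49a (0.96), and that of Tlr2 most like Pstpip2 (0.94), Lyst (0.93) and Csf2rb (0.92). Tlr9 was most like Obfc1 (0.97), Gimap1 (0.96) and Haao (0.96), and Tlr8, above background on 6 of 16 arrays, most like Ms4a8a (0.88), Bcl2l11 (0.84) and Kitl (0.84). Slide means were not removed here, so these values, which slides and groups shared by the arrays can raise, are descriptions.

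Around the receptors, 45 other genes of the pathway were listed and 42 could be tested, of which 9 were called in at least 1 of 5 comparisons. In CDPs 3 were higher (Lbp, Ctsl and Ikbke) and 1 lower (Tlr12) with tumor, against the 2.01% of all genes, and in MDPs 0 were called by limma, against 0.0859%. Between the cell types 5 were higher and 2 lower in CDPs of tumor-free mice, against 7.05% of all genes called, and 4 higher and 1 lower in CDPs of tumor-bearing mice, against 8.22%. The pathway median was -0.04, 0.06, 0.20 and 0.22 in the tumor comparisons of CDPs and MDPs and in the cell-type comparisons of tumor-free and tumor-bearing mice. Myd88, the shared adaptor, and Unc93b1, the chaperone of the endosomal receptors, were called in no comparison. With slide as a term Myd88 was called with tumor in CDPs (1.02, adjusted p = 0.0171) and between the cell types of tumor-free mice (0.65, adjusted p = 0.0436).

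Lbp, the serum protein that delivers lipopolysaccharide to Cd14, rose 2.7-fold in CDPs with tumor (log2 change 1.43, SE 0.22, limma adjusted p = 0.00537), from -1.48 to -0.54 in tumor-free samples to 0.10 to 0.69 in tumor-bearing ones. It was lower in CDPs than in MDPs of tumor-free mice (-1.06, limma adjusted p = 0.00894), and averaged 0.46 ± 0.27 in tumor-bearing CDPs and 0.50 ± 0.13 in tumor-bearing MDPs (SD, n = 4). Ikbke, a kinase upstream of interferon regulatory factors, had the same order: 1.77-fold higher with tumor in CDPs (0.82, limma adjusted p = 0.0158) and lower in CDPs than MDPs of tumor-free mice (-0.76, adjusted p = 0.00721). Its call with tumor was lost in 2 of 8 fits that left out 1 sample, those without tumor-free CDP sample 3 (adjusted p = 0.0555) or tumor-bearing CDP sample 4 (adjusted p = 0.0544).

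Tlr12, an endosomal receptor for protozoan profilin, was called in CDPs in the opposite direction to Tlr13. It fell 4.1-fold in CDPs with tumor (log2 change -2.03, SE 0.39, limma adjusted p = 0.0197), from 1.27 ± 0.20 in tumor-free to -0.76 ± 0.97 in tumor-bearing samples (SD, n = 4), and was negative on 3 of 3 slides (-3.30 to -0.67). The call was lost without tumor-free CDP sample 3 or 5 or tumor-bearing CDP sample 3 (adjusted p 0.0593 to 0.0664). In MDPs Tlr12 was also lower with tumor (log2 change -1.15, SE 0.39), but was not called (limma adjusted p = 0.366). The MDP groups did not overlap, and the change was negative on 3 of 3 slides (-1.59 to -0.91). The difference of changes between CDPs and MDPs was -0.88 (limma adjusted p = 0.748), so a fall particular to CDPs was not shown. Tlr12 was higher in CDPs than MDPs of tumor-free mice (1.43, limma adjusted p = 0.0431), a call lost without any 1 of the 8 samples (1.21 to 1.54, adjusted p 0.0591 to 0.126).

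The proteases that cleave endosomal receptors differed among themselves. Legumain (Lgmn) and cathepsin S (Ctss) were higher in CDPs than MDPs in tumor-free mice (1.31, limma adjusted p = 0.00798, and 0.86, adjusted p = 0.00497) and in tumor-bearing mice (1.70, adjusted p = 0.00146, and 0.72, adjusted p = 0.0139). Cathepsin L (Ctsl) rose 2.82-fold with tumor in CDPs (log2 change 1.49, SE 0.35, limma adjusted p = 0.0464), from -2.39 to -0.50 in tumor-free to -0.24 to 0.44 in tumor-bearing samples. This call was lost without any 1 of tumor-free CDP samples 2, 3 and 4 or tumor-bearing CDP samples 2, 3, 4 and 5 (1.16 to 1.61, adjusted p 0.0719 to 0.143), and held without tumor-free CDP sample 5 (1.79, adjusted p = 0.0277). It was also lost with the replicate block (adjusted p = 0.0774), under normexp background correction, under quantile normalization, without a filter and in the deposited table (adjusted p 0.0543 to 0.0642), and held with slide as a term (1.82, adjusted p = 0.00119).

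Downstream, Irf5 and Irf7, the transcription factors of the inflammatory and the interferon arm, were higher in CDPs. Irf5 was 2.93-fold and 2.71-fold higher in tumor-free and tumor-bearing mice (1.55, limma adjusted p = 3.39e-05, and 1.44, adjusted p = 5.72e-05). Irf7 differed by 2.80 and 3.66 (limma adjusted p = 0.013 and 0.00242), and in tumor-bearing MDPs 2 of its 4 readings were not above background. The difference in tumor-bearing mice ran from 1.98 under normexp background correction to 4.30 without tumor-bearing MDP sample 5. With tumor in CDPs, Irf7 read -0.37 to 0.24 in tumor-free and -1.49 to -1.16 in tumor-bearing samples (log2 change -1.37). This change was negative on 3 of 3 slides (-1.62 to -1.06) and was not called. It was called under normexp background correction, when only the groups compared were fitted and by the unadjusted two-sample test. Pik3ap1 (BCAP), an adaptor that links the receptors to phosphoinositide 3-kinase, was 2.18-fold lower in CDPs than MDPs of tumor-bearing mice (-1.13, SE 0.25, limma adjusted p = 0.0134).

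When only the groups compared were fitted, limma called none of Lbp, Ctsl, Ikbke and Tlr12 with tumor in CDPs (adjusted p 0.0685 to 0.146), nor Lbp between the cell types of tumor-free mice (0.0581), nor Ctss, Pik3ap1 and Irf7 of tumor-bearing mice (0.051 to 0.0804). The same calls were lost by the two-sample test after adjustment, and with them that of Lgmn in tumor-bearing mice. Ctss of tumor-bearing mice was also lost under quantile normalization (adjusted p = 0.0966) and in the deposited table (adjusted p = 0.107), and Tlr12 of tumor-free mice without a filter (adjusted p = 0.0596).

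**Figure D4:**
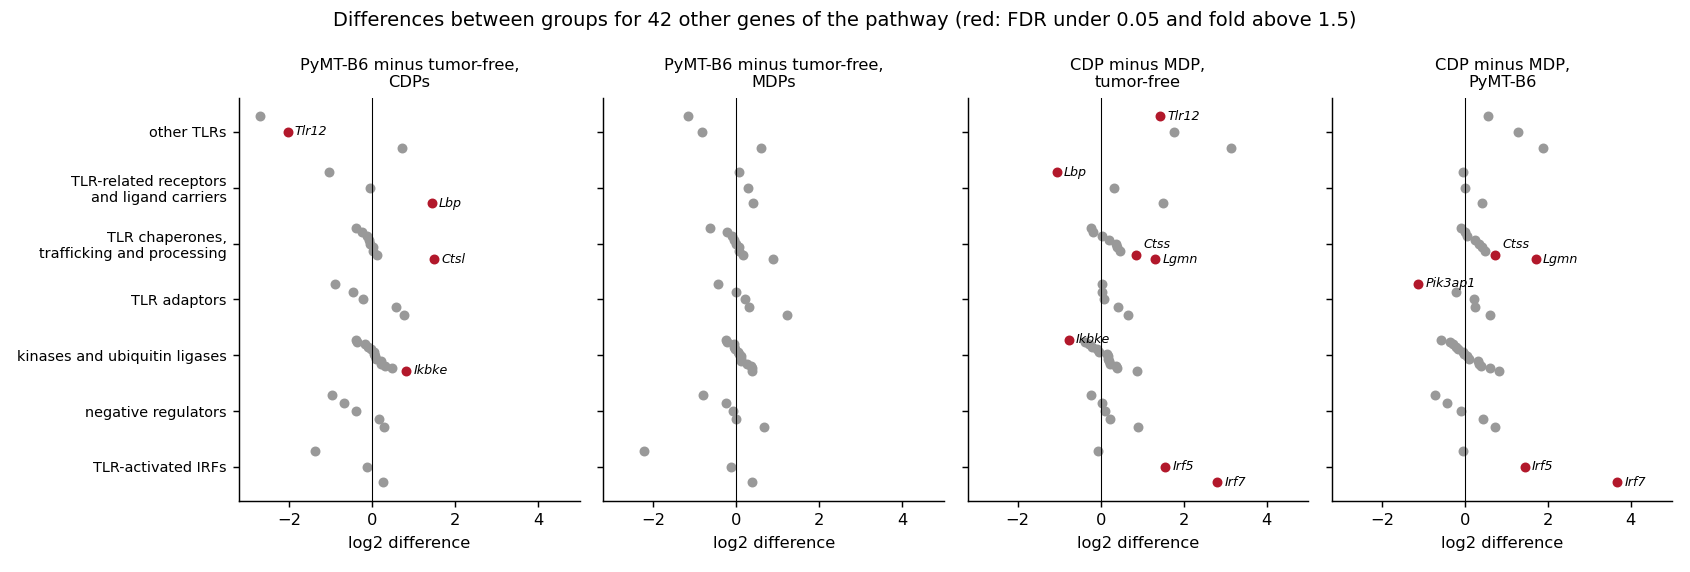
Log2 differences (horizontal axis) of 42 other genes of the pathway, 1 point per gene, by role (vertical axis) in the 4 comparisons of groups, with called genes in red and named. No gene was called in the tumor comparison of MDPs, and 4 were called in that of CDPs: Lbp, Ctsl and Ikbke above 0 and Tlr12 below.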

How the data were processed

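The authors deposited scanner output per array from Agilent Feature Extraction 11.5.1.1, and its processed signal is a spot intensity after background subtraction and detrending, with no scaling between arrays. The mean and median background intensity and yes-or-no flags (well above background, saturated, outlier) stand beside it. A further deposited table gives log2 values for 26793 probes. Against the scanner output it was found to be quantile-normalized processed signal, and it served only as an alternative. How its probes were chosen is not given in the sources used here.

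Outlier spots (182 to 289 per array) were left out, log2 processed signal minus the 75th percentile of the array was taken as the mean of a probe's spots (10 for Tlr2, 1 for the other members), and a probe was tested if 3 or more of the 4 arrays of any group read it well above background (27433 of 39429). All 4 group means entered 1 fit in limma 3.58.1, run under R 4.3.3, with tables read by the package data.table, version 1.17.8. The number of arrays limits the precision. A gene was represented by its brightest tested probe (16307 genes), with its other probes given only where they disagreed. At-least folds use, per array, the lowest signal well above background (-5.47 to -5.10) or the probe's own if higher. Exact permutation tests are two-sided. All members are named, other pathway genes where called in any comparison, and the 3 genes most like each called member. The accessions of all 12 member probes matched RefSeq under the same symbol, and that of Traf6 had no match. Ly6c2 and Ly6g, of the marker lists, had no probe by that name, and some marker results are not reported here. The members and lists were chosen with earlier results of these data known. The fit was tested on simulated data. Alternatives changed the background correction, scaling, filter, value source, slide and replicate blocks, samples fitted, test, thresholds, probe and samples left out.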

Additional observations from a re-analysis of the deposited data

Results flagged for a closer look

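Among 48 groups of 4 samples checked over the 12 probes, 2 held a sample far from the others, and chance gives about 1 in 20. For Tlr2, tumor-free MDP sample 3 read -1.32, on slide 1, against -0.86 to -0.76 in the other samples of its group. Without it the Tlr2 difference between CDPs and MDPs of tumor-free mice was 0.47, below the 0.60 over all samples. For Tlr4, tumor-free CDP sample 4 read -7.29 against -7.52 to -7.49 in the others, and none of these readings was well above background.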

How the results depend on the processing

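The count of members called with tumor in CDPs (1) was 2 with slide as a block (Tlr9 and Tlr13), 0 when only the groups compared were fitted, 0 by the two-sample test after Benjamini-Hochberg, and 0 to 1 when 1 sample was left out. The count for CDPs against MDPs of tumor-free mice (2) was 3 with slide as a block and by the unadjusted two-sample test (Tlr9 added), 1 under normexp background correction, 1 when only the groups compared were fitted, 1 by the adjusted two-sample test and 1 to 2 when 1 sample was left out. For tumor-bearing mice (3, Tlr8 included) it was 2 with slide as a block (Tlr8 and Tlr13), 5 by the unadjusted two-sample test, 1 after its adjustment and 1 to 4 when 1 sample was left out. For tumor in MDPs and the difference of changes it was 0 to 0. Deviations of samples with the same number had r from -0.63 to 0.48 over all probes, and the numbers were not taken as pairs. Most of these samples lay on different slides, and r was positive (0.14 to 0.48) where they shared a slide. Because slide enters these values, the check could not decide whether the numbers mark pairs. With the replicate block the count in tumor-free mice was 1, Tlr2 (adjusted p = 0.0909) and Tlr9 of tumor-bearing mice (adjusted p = 0.0766) lost their calls, and no other member's call changed. Tlr8 of tumor-bearing mice was also not called under quantile normalization (1.66, adjusted p = 0.108) or in the deposited value table (adjusted p = 0.118). Signs turned in differences that were not called. This was so with tumor in MDPs, Tlr6 (-0.13 under normexp, -0.37 with slide as a block, -0.45 to 0.44 with 1 sample left out), Cd14 (-0.19 under normexp, -0.22 to 0.36), Ly96 (-0.0156 under normexp), Tlr7 (0.0629 as the mean over its probes) and Tlr8 (-0.66 to 0.15). With tumor in CDPs Tlr1 ranged from -0.11 to 0.39. For CDPs against MDPs of tumor-free mice, Tlr6 ranged from -0.43 to 0.46, and under normexp Tlr7 was -0.0925 and Tlr8 -0.29. The difference of changes of Tlr2 ranged from -0.165 to 0.0544 with 1 sample left out, that of Tlr9 was -0.11 with slide as a block, and over all alternatives those of Cd14 (-0.28 to 0.52), Ly96 (-0.29 to 0.34) and Tlr7 (-0.31 to 0.61) also lay on both sides of 0. The causes were not tested. The median difference over all probes depended on the scaling: with the 75th percentile it was -0.12 with tumor in MDPs and 0.19 for CDPs against MDPs of tumor-bearing mice, and after quantile normalization 0.00 and 0.00. Over all probes, 494 were called with tumor in CDPs (155 to 581 with 1 sample left out, 1248 with slide as a block, 3 by the adjusted two-sample test), 18 in MDPs (1 to 46), 4 for the difference of changes (3 to 7), 1673 in tumor-free mice (1117 to 1504, 2925 with slide as a block) and 1993 in tumor-bearing mice (1127 to 3288). Signal over background limits Tlr4, Tlr8 and the weaker Tlr7 probes.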
